A study of Mus musculus with 18 samples.

Results

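The transcription factor gene Rest and 9 genes for its corepressors (Rcor1, Rcor2, Rcor3, Sin3a, Hdac1, Hdac2, Kdm1a, Ehmt2 and Cdyl) were followed through the first day after axon injury in cultured mouse sensory neurons. The 10 genes were listed by symbol from the 47643 genes in each count table, with earlier results of these data known. All 10 passed the filter on low counts. The cultures were dorsal root ganglia (the ganglia that hold the cell bodies of somatosensory neurons) taken from CD-1 mouse embryos of age e13.5 and grown as spots, called eDRG spots, so that axons extend outward from a clump of cell bodies. The groups were uninjured control cultures at 7 days in vitro and cultures whose axons were cut with a blade and whose RNA was taken at 1, 3, 8, 16 or 24 HPI (hours after the injury), with 3 libraries in each group and 18 in all. All groups were kept in the mitotic inhibitor FDU and in nerve growth factor, so these were embryonic neurons with few dividing cells and without target tissue, and the RNA of the whole spot was pooled.

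REST is a zinc finger protein that binds a long DNA element, RE1, found near many genes used by neurons. It represses these genes outside the nervous system and in neural progenitors, and its level falls as neurons mature. One end of the protein recruits SIN3A with the histone deacetylases HDAC1 and HDAC2, and the other recruits a CoREST protein (RCOR1, RCOR2 or RCOR3) with the histone demethylase KDM1A and the same deacetylases, while EHMT2, which methylates histone H3 at lysine 9, joins through CDYL.

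Genes known to respond to axotomy were taken as a check on the injury labels. Fos was higher than control at 1 HPI by 2.52 on the log2 scale (SE 0.31, edgeR adjusted p = 0.000741), Jun at 8 HPI by 1.03 (SE 0.09, adjusted p = 1.43e-06) and Atf3 at 16 HPI by 3.16 (SE 0.21, adjusted p = 4.07e-09). The total count on genes ran from 9478891 to 23082327 per library, and 3 counts, taken as the floor, stood for at most 0.316 CPM (counts scaled to a common library total) in any library. The summed level of 10 sensory neuron markers was between 8977 and 11181 CPM in every library, against 0.929 to 2.18 CPM for 6 endothelial and 3.54 to 7.1 CPM for 7 myeloid markers. The list of satellite and Schwann cell markers summed to between 161 and 257 CPM, and the fibroblast list to between 794 and 1138 CPM, most of it from Vim, which neurons in culture also express.

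Rest rose at 16 HPI and fell again by 24 HPI. In the 3 control libraries it stood at 0.661, 0.959 and 1.01 CPM, scaled by trimmed mean of M values (TMM) factors. The 1 HPI libraries had 0.961, 0.698 and 1.36 CPM, the 3 HPI libraries 0.755, 0.654 and 0.649 CPM, and the 8 HPI libraries 0.302, 1.06 and 0.808 CPM. At 16 HPI Rest reached 4.19, 3.28 and 3.51 CPM, and at 24 HPI it had 0.735, 1.03 and 1.28 CPM. All 3 libraries at 16 HPI were above each of the other 15, an order found for 2.26% of the 13771 genes tested, and at the other times Rest overlapped its control range. In reads, Rest had 58 to 65 counts in each 16 HPI library and 5 to 28 in the rest.

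**Figure D1:**
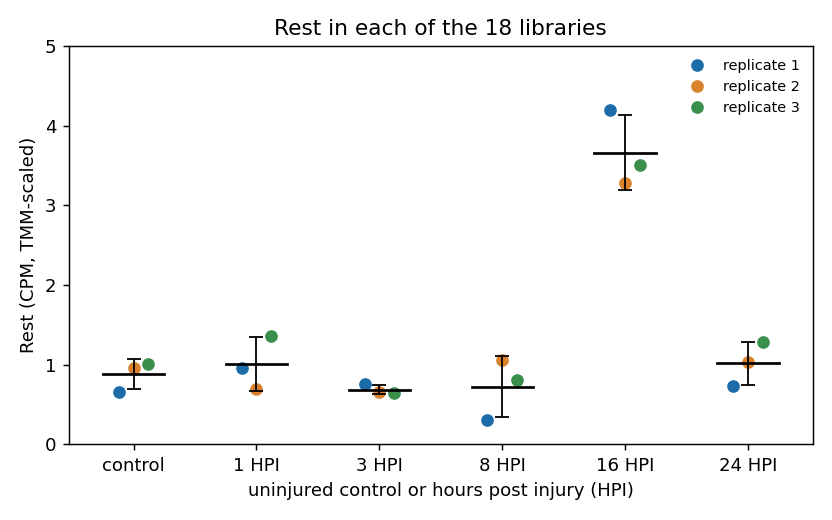
Rest in CPM (vertical axis, TMM-scaled) in each library of the control and the 5 times after injury (horizontal axis); points are libraries colored by replicate number, and black lines are the mean and SD of 3 libraries. The 16 HPI libraries lie between 3.28 and 4.19 CPM, above the other 15.

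In the model of all 18 libraries with the replicate number as a batch, Rest at 16 HPI was above control by 2.06 on the log2 scale (SE 0.26, 95% interval 1.53 to 2.60, adjusted p = 7.80e-06, higher in 3 of 3 batches), a 4.18-fold difference. It was also above 8 HPI by 2.43 (SE 0.28, adjusted p = 1.19e-05), and from 16 to 24 HPI it fell by 1.81 (SE 0.24, adjusted p = 6.21e-05). Rest did not pass at 1, 3, 8 or 24 HPI against control, where its log2 differences were 0.19, -0.33, -0.37 and 0.25 with standard errors from 0.31 to 0.37. The 95% intervals of these differences reached from -1.13 to 0.90, so at 5 to 28 counts changes within them were not excluded. Leaving out each library of the comparison in turn gave log2 differences between 1.83 and 2.25 at 16 HPI. The study named Rest among the factors that change on these same samples, so its rise is not independent evidence.

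Other measures also differed at 16 HPI. Counts from a list of genes that hold residual ribosomal RNA made up 2.15, 1.29 and 0.995% of the 3 libraries at 16 HPI and 0.666 to 1.02% of the other 15. With these and the mitochondrial genes left out, Rest remained 2.07 above control (adjusted p = 5.64e-06). The fibroblast marker Dcn, which codes for the matrix protein decorin, rose from 0.570 ± 0.310 CPM in control to 2.46 ± 0.950 CPM at 16 HPI and stood at 2.79 ± 1.35 CPM at 24 HPI (SD, n = 3), when Rest was at 1.01 ± 0.272 CPM. Of the 8 tested genes of the fibroblast list, Dcn alone passed upward at 16 HPI and Thy1 passed downward. The satellite and Schwann cell list summed to 161 to 209 CPM at 16 HPI against 186 to 255 CPM in control. Of its 7 tested genes 1 passed at 16 HPI, downward (14.3%, beside 22.2% of all genes). Of the 2 tested myeloid markers, Cd68, a lysosomal protein gene of macrophages, passed upward at 16 HPI (log2 0.97, SE 0.25, adjusted p = 0.00698) and at 24 HPI (0.93, adjusted p = 0.0125), with 0.924 to 2.65 CPM at 16 HPI against 0.712 to 1.16 CPM in control, so the groups overlapped. A list of 7 neural crest, progenitor and cell cycle markers summed to 3.10 to 5.20 CPM in control, 4.25 to 7.82 CPM at 16 HPI and 5.42 to 11.2 CPM at 24 HPI. None of its 4 tested genes passed at 16 HPI, where their median log2 difference was 0.59, and the progenitor filament gene Nes (1.86) and the cell cycle gene Top2a (1.44) were called higher at 24 HPI. In RNA from whole cultures, more cells of a type and more RNA per cell cannot be told apart, and the part of non-neuronal cells in the rise of Rest was not tested.

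The corepressor genes stayed close to control. Across the 5 times, the log2 differences of the 9 genes from control lay between -0.23 and 0.29, and their 95% intervals between -0.45 and 0.52. Their summed level was 442 to 493 CPM in the 18 libraries, 455 to 485 CPM in control and 442 to 467 CPM at 16 HPI. The ratio of this sum to Rest, which was 474 to 721 in the control libraries, was 109 to 134 at 16 HPI. At the remaining times it ran from 348.5 (1 HPI replicate 3) to 1560 (8 HPI replicate 1, with 5 Rest counts). It was taken in CPM, not per length, so it is not a ratio of transcripts.

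**Figure D2:**
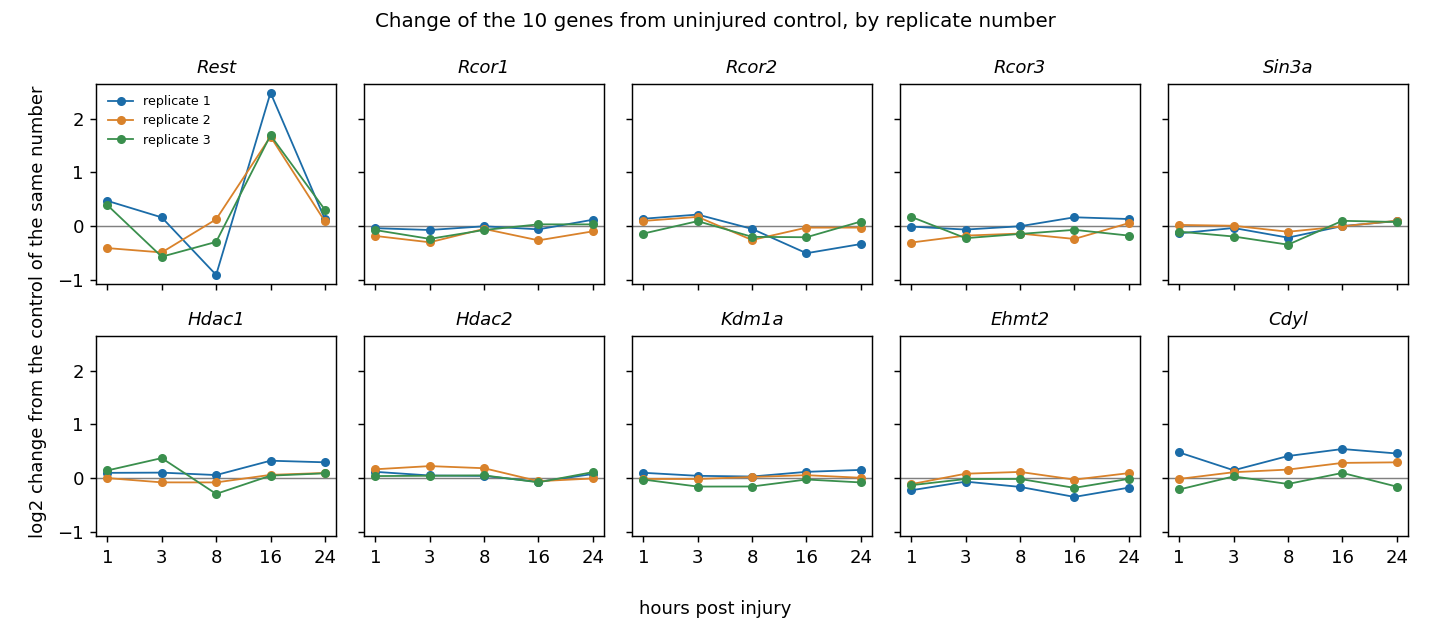
Log2 change of each of the 10 genes from the control library of the same replicate number (vertical axis, shared) against hours post injury (horizontal axis), 1 line per replicate number. Rest climbs to between 1.67 and 2.48 at 16 HPI, while the lines of the other 9 genes stay between -0.50 and 0.54.

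Counted over the 10 genes, no gene passed against control at 1, 3 or 24 HPI in edgeR, where the share of all tested genes that passed was 0.276%, 0.189% and 15%. DESeq2 also passed none at these times, and 2, 2 and 0 of the 10 genes had an unadjusted p under 0.05 (12.8%, 14.5% and 28.6% of all genes). At 8 HPI 1 gene passed (7.69% of all genes), and at 16 HPI 2 passed (22.2% of all genes), Rest and Ehmt2. Rest was the only member called at over 2-fold, and 1.49% of all genes were called so at 16 HPI. Between successive times, no gene passed for 3 against 1 HPI (0% of all genes) or 8 against 3 HPI (2.3%) in edgeR or DESeq2, with 1 and 4 genes at an unadjusted p under 0.05 (7.53% of all genes and 1863 of the 13771 genes). For 16 against 8 HPI 4 passed (15.2%), and for 24 against 16 HPI Rest passed (9.81%). Over all time points together 4 genes passed (29.9% of all genes): Rest (adjusted p = 1.48e-06), Sin3a (0.0148), Ehmt2 (0.0216) and Hdac2 (0.0474). Of the 9 corepressors alone, 11.1% passed at 8 HPI, 11.1% at 16 HPI, 0% at 24 HPI, 33.3% for 16 against 8 HPI and 33.3% over all time points.

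Sin3a, the scaffold of the SIN3 complex, was lowest at 8 HPI. Its level was 29.7, 27.5 and 32.2 CPM in control, 25.7, 25.6 and 25.4 CPM at 8 HPI and 29.9, 27.5 and 34.6 CPM at 16 HPI. The 8 HPI libraries lay below all 3 controls, and groups that do not overlap control made up 12.2% of all genes at that time. The log2 difference at 8 HPI was -0.23 (SE 0.07, adjusted p = 0.0475), and from 8 to 16 HPI the gene rose by 0.27 (SE 0.07, adjusted p = 0.0121). The first call was lost in DESeq2 (adjusted p = 0.0942) and without each of 5 of the 6 libraries, with adjusted p between 0.0700 and 0.276 there, and the second without 8 HPI replicate 3 (0.107) or 16 HPI replicate 3 (0.0964).

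Ehmt2, the H3K9 methyltransferase, was lower at 16 HPI. It stood at 93.6, 75.4 and 86.4 CPM in control and 73.6, 74.1 and 76.4 CPM at 16 HPI, so the groups overlapped through control replicate 2. The log2 difference was -0.19 (SE 0.05, adjusted p = 0.0155, lower in 3 of 3 batches) and it ended without control replicate 1 (adjusted p = 0.156), without 16 HPI replicate 1 (0.104) and without 16 HPI replicate 3 (0.0507). From 8 to 16 HPI Ehmt2 fell by 0.16 (SE 0.05, adjusted p = 0.0495), a call lost in 12 of 15 alternatives, with adjusted p of 0.0699 in DESeq2, 0.152 with upper-quartile scaling and 0.351 without the replicate block. Ehmt2 was nearly as far below control at 1 HPI (-0.16, SE 0.05, lower in 3 of 3 batches), where it did not pass (edgeR adjusted p = 0.215). The gene is GC-rich, with 60.8% GC in its longest transcript.

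Hdac2, a class I deacetylase shared by both complexes, had 152, 136 and 133 CPM in control, 157, 155 and 138 CPM at 8 HPI and 145, 131 and 127 CPM at 16 HPI. The control and 16 HPI groups overlapped, and the log2 difference of -0.07 (SE 0.05) did not pass. From 8 to 16 HPI Hdac2 fell by 0.16 (SE 0.05, adjusted p = 0.0415), and this call was lost without any 1 of the 6 libraries (adjusted p from 0.0627 to 0.169) and with upper-quartile scaling (0.141). Without the replicate block the calls of these 3 genes were lost, with adjusted p of 0.454 for Sin3a at 8 HPI, 0.165 for Sin3a from 8 to 16 HPI, 0.179 for Ehmt2 at 16 HPI and 0.492 for Hdac2 from 8 to 16 HPI.

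The other 6 corepressors passed in no comparison. Rcor1, the founding CoREST gene, was lower than all 3 controls at 3 HPI, with 51.0, 45.9 and 47.5 CPM against 53.5, 56.4 and 55.8 CPM, a log2 difference of -0.20 (SE 0.06, adjusted p = 0.138), when 7.67% of all genes had groups that did not overlap control. Rcor2, a CoREST paralog, had 16.9, 21.4 and 23.1 CPM at 16 HPI against 23.9, 21.8 and 26.5 CPM in control (log2 difference -0.23, SE 0.11, adjusted p = 0.140). Cdyl, the bridge to EHMT2, had the largest positive difference, 0.29 at 16 HPI (SE 0.11, adjusted p = 0.0687), with 12.7, 13.9 and 15.4 CPM against 8.69, 11.4 and 14.4 CPM; with upper-quartile scaling it passed. Hdac1 was above all 3 controls at 16 HPI, with 8.32, 7.02 and 7.18 CPM against 6.61, 6.71 and 6.93 CPM (log2 difference 0.15, SE 0.12, adjusted p = 0.413), when 20.4% of all genes had groups that did not overlap. Kdm1a, the demethylase, stayed between 83.8 and 101 CPM, and Rcor3 between 21.2 and 32.2 CPM, in the 18 libraries.

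Levels between genes were compared per length, as RPKM (CPM divided by the exon length in kilobases) in the control libraries. The order was Hdac2 (31.4 ± 2.24), Kdm1a (17.9 ± 1.63), Ehmt2 (15.5 ± 1.67), Rcor1 (9.71 ± 0.271), Rcor2 (7.63 ± 0.758), Sin3a (5.53 ± 0.433), Cdyl (2.61 ± 0.650), Hdac1 (1.96 ± 0.0484), Rcor3 (1.93 ± 0.149) and Rest (0.121 ± 0.0262; SD, n = 3). Kdm1a and Ehmt2 overlapped, as did Cdyl with Hdac1 and Hdac1 with Rcor3, and the other neighbors did not. Rest lay above only 1.06% of the 13728 tested genes with a length, and Hdac2 above 90.5%. At 16 HPI Rest had 0.507 ± 0.0656 RPKM and was still the lowest of the 10. Over the 18 libraries Rcor1 made up 50.1 ± 3.47% of the summed CoREST RPKM, Rcor2 39.8 ± 4.08% and Rcor3 10.1 ± 1.01% (SD, n = 18). At 3 HPI Rcor1 and Rcor2 overlapped, at 45.2 ± 1.35% and 45.5 ± 1.36% (SD, n = 3). Rcor3 depends most on the length taken: its exons add up to 13622 bases but its longest transcript has 3791, and with that length its share is 27.6%. Hdac1 made up 6.0 ± 0.806% of the summed Hdac1 and Hdac2 RPKM. Of the 100-base stretches of Hdac1 transcripts, 24.9% also occur in other genes, among them the pseudogene Gm10093, so the counting could split its reads.

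**Figure D3:**
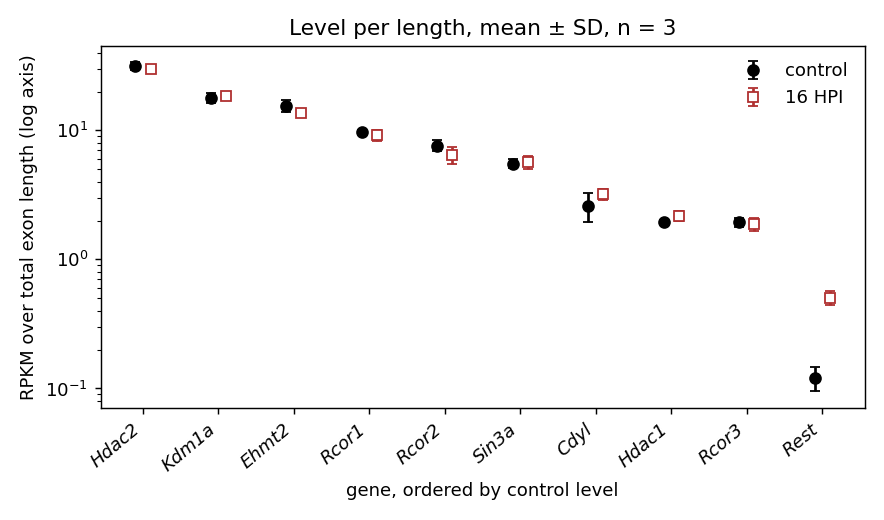
Level of each gene in RPKM over total exon length (vertical log axis), ordered by the control level (horizontal axis), for control (filled circles) and 16 HPI (open squares), mean and SD of 3 libraries. Rest moves from 0.121 to 0.507 RPKM, and the 2 marks of each other gene lie close together.

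Further members of the complexes were counted from a list of 30 partners, all of them tested. At 8 HPI 1 passed, at 16 HPI 8 passed (4 higher, 4 lower, 26.7%) and at 24 HPI 5 passed (2 higher, 3 lower, 16.7%), beside 7.69%, 22.2% and 15% of all genes. The largest difference was that of Sap30, a subunit of the SIN3 complex, which rose from 5.14 ± 1.02 to 9.16 ± 0.434 CPM at 16 HPI (log2 0.84, SE 0.13, adjusted p = 5.37e-05). Smarce1 (0.26) and Cdyl2 (0.24), a paralog of Cdyl, were also higher at 16 HPI, and Smarcc2 (-0.29), the DNA methyltransferase gene Dnmt1 (-0.24) and the remodeling ATPase gene Smarca4 (-0.21) were lower. At 24 HPI Smarce1 (0.23) and Rbbp7 (0.15) were higher and Smarca4 (-0.34), Smarcc2 (-0.24) and Zmynd8 (-0.15) lower. Smarca4 was also the gene that passed at 8 HPI (-0.22).

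Genes that act on REST itself were a list of 12, of which 11 were tested. At 8 HPI 2 passed (18.2%), at 16 HPI 4 (36.4%) and at 24 HPI 1 (9.09%), beside 7.69%, 22.2% and 15% of all genes. The list holds Rilp, a lysosomal protein gene included because its symbol was also once used for the product of Prickle1; it did not pass at any of these times. Prickle1, which binds REST and has a role in its nuclear transport, rose from 11.6 ± 2.52 to 15.9 ± 0.665 CPM at 16 HPI (log2 0.46, SE 0.10, adjusted p = 0.0023). It was already higher at 8 HPI (0.39). Srrm4, a neural splicing factor that acts on Rest transcripts, was higher at 16 HPI (0.35, adjusted p = 0.0309). Btrc, part of the ubiquitin ligase that marks REST for degradation, was lower (-0.26, adjusted p = 0.000538), and so was Usp7, a deubiquitinase of REST (-0.20, adjusted p = 0.00126). Usp7 was also lower at 8 HPI (-0.14) and 24 HPI (-0.14); with upper-quartile scaling the 1 gene of this list that passed at 24 HPI was higher. Transcript isoforms of Rest were not resolved by counts per gene.

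Neuronal genes with a known or proposed RE1, a list of 50 of which 48 were tested, shifted downward late. At 8 HPI 6 passed (1 higher, 5 lower), at 16 HPI 24 (2 higher, 22 lower, 50%) and at 24 HPI 20 (1 higher, 19 lower, 41.7%). Of all tested genes 3.8% passed higher and 3.89% lower at 8 HPI, 10.7% and 11.5% at 16 HPI, and 5.99% and 9.03% at 24 HPI. The median log2 difference was -0.17 at 16 HPI and -0.13 at 24 HPI, and over all tested genes it was -0.00 and 0.00. Upper-quartile scaling left 18 lower and 2 higher at 16 HPI and 16 lower and 1 higher at 24 HPI, while over all genes it moved the share of higher among the genes that passed from 39.9% to 55.6% at 24 HPI. Without the replicate number as a block, 1, 7 and 3 genes of the list passed at 8, 16 and 24 HPI. Whether REST bound any of these genes was not measured.

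**Figure D4:**
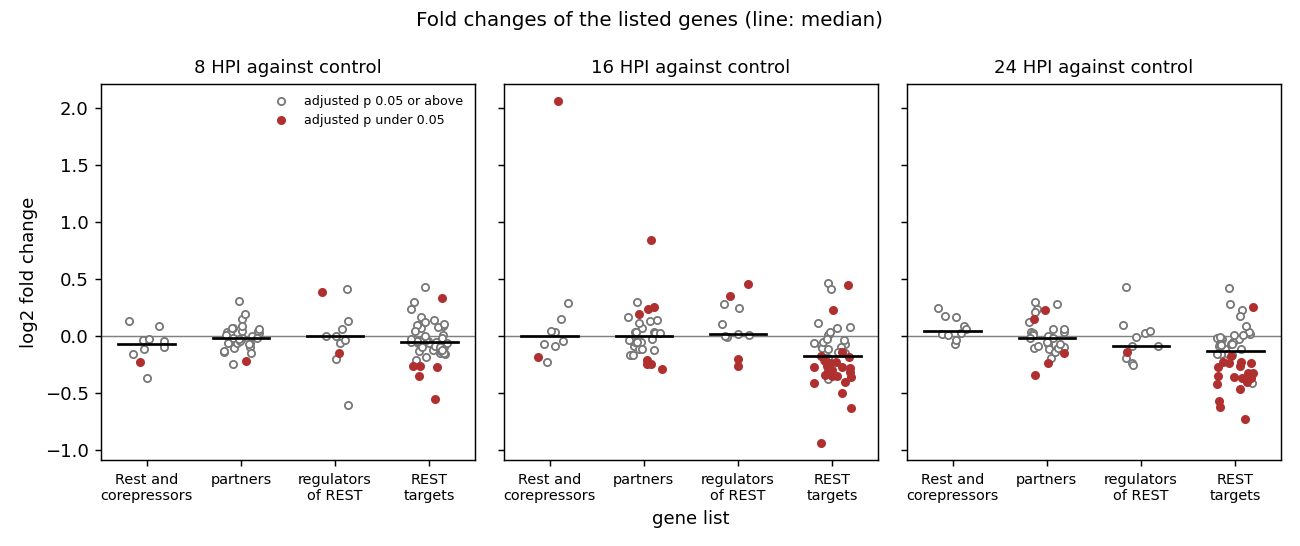
Log2 fold change against control (vertical axis) of each gene of 4 lists (horizontal axis) at 8, 16 and 24 HPI; filled red points passed at an adjusted p under 0.05, open points did not, and black lines are medians. Rest is the point at 2.06 at 16 HPI, and the targets have medians of -0.17 at 16 HPI and -0.13 at 24 HPI.

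The mu opioid receptor gene Oprm1 had the largest fall, from 35.7 ± 12.3 CPM in control to 19.0 ± 8.67 at 16 HPI (log2 -0.94, SE 0.08, adjusted p = 7.17e-08, lower in 3 of 3 batches). The NMDA receptor subunit gene Grin2b went from 14.8 ± 1.49 to 9.76 ± 2.90 CPM (log2 -0.63, SE 0.12, adjusted p = 0.00078). Atp2b2, a plasma membrane calcium pump, went from 156 ± 21.1 to 111 ± 16.6 CPM (log2 -0.50, SE 0.07, adjusted p = 1.79e-05). These 3 genes also had the largest falls at 24 HPI, with log2 differences of -0.73 for Grin2b, -0.62 for Oprm1 and -0.57 for Atp2b2. At that time Rest differed from control by 0.25 (95% interval -0.41 to 0.90). Only Rest RNA was measured, so the level of REST protein at any of these times is not known, and its part in these falls was not tested. Bdnf, a neurotrophin induced by injury, rose at 16 HPI from 24.7 ± 1.12 to 33.6 ± 2.41 CPM (log2 0.45, SE 0.09, adjusted p = 0.000965) and was higher at 8 HPI (0.33). At 8 HPI, when Rest differed by -0.37 (95% interval -1.13 to 0.40), the genes with the largest falls were the muscarinic receptor gene Chrm4 (-0.55), Oprm1 (-0.35) and Celsr3 (-0.27). Elavl4, an RNA-binding protein gene of neurons, was lower at 16 HPI (-0.41) and higher at 24 HPI (0.25). The summed neuron markers, a list that shares Tubb3 and Elavl4 with the targets, were 8977 to 9863 CPM at 16 HPI against 10214 to 10864 CPM in control. Tubb3 itself went from 2955 ± 391 to 2237 ± 329 CPM, so much of this fall came from a gene of both lists. Of the 10 markers 3 passed at 16 HPI, all lower (30%, beside 22.2% of all genes): Tubb3, Elavl4 and Rbfox3. The sum is therefore not separate from the targets, and the markers' part in the targets' shift was not tested.

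**Figure D5:**
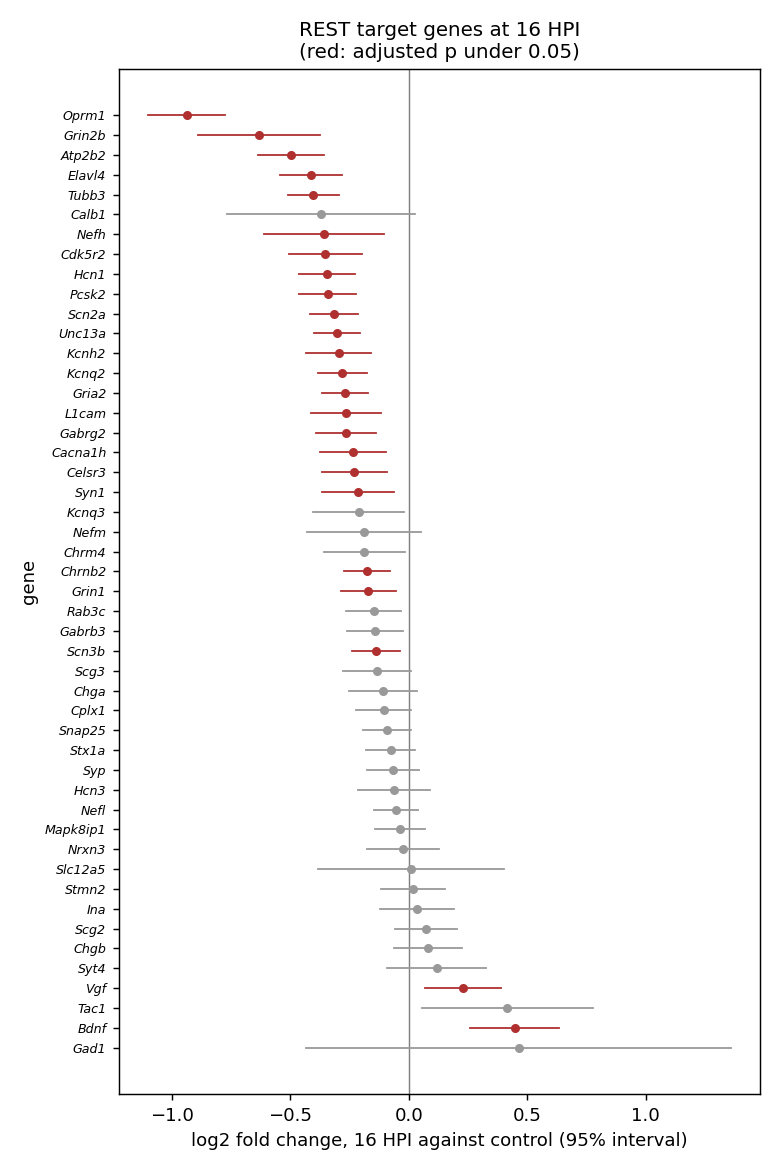
Log2 fold change at 16 HPI against control with its 95% interval (horizontal axis) for the 48 tested target genes (vertical axis), ordered by value; red marks genes at an adjusted p under 0.05. Of the 24 red genes 22 lie below 0, down to -0.94 for Oprm1.

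The RE1 element was looked for in windows of 300 bases, from 250 before to 50 after each start site, of the RefSeq genes of mouse (GRCm38.p6). The letters searched, on both strands, were TTNAGCACC, then any 2 bases, then GGNCAG, in which N is any base. They occurred in 9 of 32851 windows (0.0274%), in 3 of 48 windows of the 30 target genes found there (6.25%), and in none of the 12 windows of the 8 members found there. The target list was made of genes with a known or proposed RE1. A higher share was therefore built into the list and says nothing about binding. Outside these windows nothing was searched. The 6 tested genes with a match are shown because they tie an element that REST can bind to a measured gene; each is printed 5′ to 3′ on the strand of the element with the match in capitals. Gria2 lies at chr3:80802977-80803017 (plus strand), Syn1 at chrX:20921122-20921162 (minus), Celsr3 at chr9:108825906-108825946 (plus), Scamp5 at chr9:57468186-57468226 (minus), Osbp2 at chr11:3774779-3774819 (plus) and Lhfpl5 at chr17:28575633-28575673 (minus).
Gria2: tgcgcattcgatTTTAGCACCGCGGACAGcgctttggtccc
Syn1: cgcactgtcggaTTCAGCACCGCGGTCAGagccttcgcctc
Celsr3: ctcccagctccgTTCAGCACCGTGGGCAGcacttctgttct
Scamp5: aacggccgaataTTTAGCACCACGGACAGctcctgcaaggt
Osbp2: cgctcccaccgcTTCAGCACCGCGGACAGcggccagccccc
Lhfpl5: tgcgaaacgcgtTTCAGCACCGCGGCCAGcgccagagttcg

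At 16 HPI the AMPA receptor subunit gene Gria2 was lower (log2 -0.27, SE 0.05, adjusted p = 0.000253), the synaptic vesicle gene Syn1 was at -0.21 (SE 0.07, adjusted p = 0.0409), the adhesion receptor gene Celsr3 at -0.23 (SE 0.07, adjusted p = 0.0149) and Scamp5 at -0.13 (SE 0.05, adjusted p = 0.0477). Osbp2 rose by 0.63 (SE 0.07, adjusted p = 3.51e-06). Lhfpl5 was at -0.18 (SE 0.12, adjusted p = 0.324). By 24 HPI, when Rest did not pass, Celsr3 was at -0.36 (edgeR adjusted p = 0.000809), Syn1 at -0.27 (0.0160) and Gria2 at -0.23 (0.00188). Scamp5 (-0.13), Osbp2 (0.18) and Lhfpl5 (-0.06) did not pass then. Celsr3 alone of the 6 passed at 8 HPI, at -0.27 (edgeR adjusted p = 0.0158), when Rest did not pass either. Of the 6 genes, 16.7% passed at 8 HPI, 83.3% at 16 HPI and 50% at 24 HPI, beside 7.69%, 22.2% and 15% of all genes. They were picked by sequence after the counts had been seen and are a description, and REST protein was not measured.

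The genes whose course was most like that of Rest were found by the root mean square difference of the log2 change from the control of the same number over 15 injured libraries. The closest were Peli2 (0.521), Rnd1 (0.535), Ccnf (0.539), Sema6a (0.584) and Sun2 (0.589). Peli2, a ubiquitin ligase gene of innate immune signaling, was 1.85 above control at 16 HPI, and Sema6a, an axon guidance gene, 1.26 above. With the sign of Rest turned, the closest were Rgs5 (0.578), the potassium channel gene Kcnj3 (0.602), Scml4 (0.603), Zmat4 (0.610) and the channel gene Ano3 (0.617). The choice is unstable, since leaving out any 1 replicate number kept 2 of the 5 genes most like Rest. No corepressor was close: Cdyl came nearest at rank 1278 of 13770 and Rcor2 was the farthest at rank 11665.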

How the data were processed

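RNA of 18 eDRG spot cultures was sequenced. Per the labels and methods, the authors removed ribosomal RNA, aligned reads to mm10 with STAR and deposited raw counts per gene; the methods name featureCounts, while the processing notes name HTSeq, FastQC and DESeq2. Of 47643 genes, 47224 were named from GENCODE vM21. Entries without a gene (25.2 to 33.2% of each library) were left out.

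Counts were tested with edgeR 4.0.16 (quasi-likelihood, two-sided, R 4.3.3) in 1 fit of all libraries, with time and replicate number as terms, TMM factors and genes over 1 CPM in at least 3 libraries (13771). A gene passed at a Benjamini-Hochberg adjusted p under 0.05 over all genes and was called if also over 2-fold. DESeq2 1.42.0, other scalings, filters and left-out libraries were alternatives. The replicate numbers paired the samples: deviations from group means correlated at 0.484 to 0.765 in 45 same-numbered pairs. In the 90 other pairs the correlations were -0.577 to -0.0423. Centering on group means makes these negative on average when same-numbered ones are positive, so they add nothing. Named genes were the 10 members, the 3 largest per direction in each related list at 8, 16 and 24 HPI that passed and moved the same way in 3 of 3 batches, the 5 genes most like and most unlike Rest, and Fos, Atf3 and Jun. The members and lists were chosen with earlier results of these data known. Nothing states that replicates came from separate animals, so p-values measure the spread between these samples. RPKM was computed here from total exon length. The fit was tested on simulated counts that held no effect of the replicate number, so that test does not cover the replicate block. Intervals and floors cover counting error only where no replicates enter.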

Additional observations from a re-analysis of the deposited data

Results flagged for a closer look

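Differences between successive times that passed the test were picked out. Rest differed between 16 and 8 HPI by 2.43 on the log2 scale and between 24 and 16 HPI by -1.81, each in 3 of 3 batches. Between 16 and 8 HPI Sin3a differed by 0.27, Hdac2 by -0.16 and Ehmt2 by -0.16, and each of these 3 calls was lost under at least 1 alternative.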

How the results depend on the processing

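Rest at 16 HPI against control passed in each of the 14 alternatives that tested it, with log2 differences from 1.83 to 2.25 and adjusted p up to 0.00233; it was not tested among genes over 1 CPM in all 18 libraries. The 90 results of the 9 corepressors gave 1446 alternative values, of which 62 lost and 18 gained a call and 0 changed direction as called. Without the replicate block, members that passed numbered 0 at 8 HPI, 1 at 16 HPI, 1 for 16 against 8 HPI and 1 over all time points; partners 0, 1 and 0, regulators 0, 0 and 0, and targets 1, 7 and 3 at 8, 16 and 24 HPI. At 8 HPI 0 members passed with DESeq2, with at least 10 counts as the filter, and with the 2 groups alone. At 16 HPI 1 passed with genes over 1 CPM in all libraries and with the 2 groups alone. For 8 against 3 HPI 1 passed with the 2 groups alone. For 16 against 8 HPI 2 passed with upper-quartile factors, with either filter and with the 2 groups alone. For 24 against 16 HPI 0 passed with genes over 1 CPM in all libraries and 2 with GC and length correction. With at least 10 counts, partners numbered 3 at 24 HPI and regulators 1 at 8 HPI and 0 at 24 HPI. Regulators at 8 HPI numbered 1 with DESeq2 and without residual ribosomal and mitochondrial genes and 0 with the 2 groups alone, and at 24 HPI 0 with GC and length correction. The causes were not tested. Leaving out 1 library, members numbered 0 to 1 at 8 HPI, 1 to 3 at 16 HPI, 1 to 3 for 16 against 8 HPI, 1 to 2 for 24 against 16 HPI and 2 to 5 over all time points; partners 0 to 1, 6 to 10 and 2 to 4, regulators 0 to 2, 3 to 4 and 0 to 1, and targets 1 to 6, 17 to 20 and 16 to 17 at 8, 16 and 24 HPI. With the longest transcript as length, control levels were 8.53 RPKM for Rcor2, 6.95 for Rcor3, 3.31 for Hdac1, 43.2 for Hdac2, 30.6 for Kdm1a and 21.1 for Ehmt2, and shares were 38.3% for Rcor1, 34.1% for Rcor2, 27.6% for Rcor3 and 7.27% for Hdac1. Of the 5 genes most like Rest, 1 remained over time point means and 2 without any 1 replicate number. Counts of 5 to 28 limit Rest outside 16 HPI.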
